A study of Homo sapiens with 28 samples.

Results

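The 5 genes described here are CLK1 (ENSG00000013441), CLK2 (ENSG00000176444), CLK3 (ENSG00000179335), CLK4 (ENSG00000113240) and SNRNP70 (ENSG00000104852), out of 34139 genes with reads in the deposited count table. They were taken by gene identifier, with reads marked intronic kept apart from the other reads, which are called exonic here. The set, proposed as genes with detained introns, was chosen by measured values of these libraries. Its rule names intronic and exonic read counts and T-to-C shares, with no threshold and no contrast, and which of them decided the choice is not recorded. Intronic and converted shares are therefore compared between these genes, and with other genes, as a description without a test, and the tests between groups of libraries below are on genes picked with these data known.

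Total RNA came from wild-type HEK 293T, an established human embryonic kidney cell line. The cells received 100 µM 4-thiouridine (s4U) for 2 h or none, and all libraries compared share that line. Which libraries came from the same culture is not given in the labels. s4U enters RNA made during labelling, and after chemical conversion of the purified RNA the labelled positions read as C in place of T. A read with at least 1 T-to-C mismatch is called converted. The 3 chemistries were sodium periodate with trifluoroethylamine at pH 5.2 (TL), iodoacetamide (SLAM) and osmium tetroxide with ammonia (TUC). Each was applied after drop-out handling (DO), the common protocol, and after improved handling (IH), which was designed to limit the loss of labelled RNA. Every combination of chemistry and handling had 2 libraries with s4U and 1 without, which gives 12 groups and 18 libraries. Handling covers both RNA collection and data processing in the series' design text. The counts and shares compared here come from the same alignment for both handlings, so alignment does not differ between them. Other steps within handling cannot be told apart.

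CLK1, CLK2, CLK3 and CLK4 encode dual-specificity kinases that phosphorylate SR proteins, the serine- and arginine-rich factors that guide splice site choice. SNRNP70 encodes U1-70K, a protein of the U1 small nuclear ribonucleoprotein that recognises 5′ splice sites. A detained intron is one left in an otherwise spliced, polyadenylated transcript that stays in the nucleus, and the CLK1 and CLK4 transcripts are textbook cases in which the kinases' own activity affects the splicing of the intron. Such a transcript can later be spliced and exported or be degraded.

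On GRCh38.p14, the RefSeq gene CLK1 spans chromosome 2, 200853009 to 200864658, on the minus strand. CLK2 spans chromosome 1, 155262868 to 155273504, also on the minus strand. CLK3 spans chromosome 15, 74608372 to 74630201, on the plus strand. CLK4 spans chromosome 5, 178602664 to 178627050, on the minus strand. SNRNP70 spans chromosome 19, 49085451 to 49108604, on the plus strand. The count table marks a read as intronic without naming the intron, so the values below cover all introns of a gene together.

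Libraries held 1935777 to 9962345 aligned reads. Reads that named no single gene made up 32.7% to 41.5% in the drop-out libraries and 17.5% to 25.7% in the improved-handling ones, so this share moves with every comparison of handlings, and its part in those results was not tested. The labels do not say whether duplicates were separate cultures, so p-values measure the spread between these libraries, which may be technical. Same-numbered drop-out libraries of different chemistries deviated together (correlations 0.293 to 0.335), while the main fits treat all libraries as independent. The intervals given for shares are 95% Wilson intervals and cover counting error only. Of the 4 HEK markers chosen, NEFM and VIM were present in the authors' deposited rate table, and of 8 markers of blood, liver, endothelium and muscle 0 were. That table lists only part of the transcriptome, so absence from it shows no absence of RNA. Reads that could be placed in a gene of the set and in another gene came to 4.74% of CLK4's own reads, 3.26% of CLK1's and at most 0.534% of those of the other genes, and they were left out.

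CLK1 and CLK4 rose strongly in exonic reads from drop-out to improved handling. CLK1 in the 6 drop-out libraries with s4U ran from 2.46 to 15.2 CPM (exonic reads scaled by TMM library size), with a median of 7.55. In the 6 improved-handling libraries with s4U it ran from 37.6 to 64.4 CPM, with a median of 45.9. All 6 improved-handling values lay above all 6 drop-out values. The mean went from 8.71 ± 4.80 to 48.7 ± 10.9 CPM (SD, n = 6 each), a log2 fold change of 2.70 ± 0.23 (SE), or 6.51-fold, in edgeR's quasi-likelihood test (adjusted p = 5.43e-10). The drop-out values rest on 5 to 13 exonic reads per library.

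CLK4, which is closely related to CLK1, had 1 to 7 exonic reads in each drop-out library with s4U and 29 to 86 in each improved-handling one. Its level was 3.05 ± 1.77 CPM against 29.6 ± 7.15 CPM (SD, n = 6 each), and the groups did not overlap. The log2 fold change was 3.19 ± 0.31 (SE; edgeR, adjusted p = 4.16e-09). CLK4 reached the filter on low counts (7.77 CPM in at least 1 library) in 0 of 9 drop-out and 9 of 9 improved-handling libraries, so it was tested only because of the handling in which it is high, and its call and rank among tested genes support nothing beyond these values. Both kinases rose within each chemistry. CLK1 changed by 2.65 in TL, 3.35 in SLAM and 2.11 in TUC on the log2 scale (edgeR, adjusted p of at most 2.88e-05). CLK4 changed by 3.26, 3.08 and 3.24, with the same limit from the filter. In these fits 7858 of 12449 genes were called in TL, 7907 in SLAM and 7821 in TUC.

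CLK2 and CLK3 changed less, and unevenly among chemistries. CLK2 had 69.7 to 115 CPM in the drop-out libraries with s4U and 66.0 to 87.0 CPM in the improved-handling ones, so the ranges overlapped. Its log2 fold change of -0.43 ± 0.14 passed the test (edgeR, adjusted p = 0.00714), but without a scaling factor between libraries it was 0.13 (adjusted p = 0.359), and without the TUC libraries the call was lost (-0.40, adjusted p = 0.0536). CLK3 had 32.3 to 56.1 CPM against 23.9 to 43.4 CPM, again overlapping. Its log2 fold change of -0.39 ± 0.19 did not pass (edgeR, adjusted p = 0.0582), and without a scaling factor it was 0.17. Fitted on the 12 libraries with s4U alone, with 11476 genes tested and a median gene of 0.24 in place of 0.44, CLK3 was -0.59 and passed (adjusted p = 0.00727), and adding the replicate number as a block there gave -0.57 (adjusted p = 0.0083). By chemistry, the CLK2 log2 fold change was 0.09 in TL (edgeR, adjusted p = 0.760), -0.71 in SLAM (0.0139) and -0.67 in TUC (0.0189). That of CLK3 was -0.20 in TL (0.5995), -0.77 in SLAM (0.0472) and -0.21 in TUC (0.567). As given above, 7858, 7907 and 7821 of 12449 genes were called in TL, SLAM and TUC. A difference between chemistries was not tested. Leaving out 1 library carried the CLK3 value past the threshold in 5 of 12 cases: drop-out TL library 1 (-0.62), SLAM library 1 (-0.60), TUC library 1 (-0.45) or TUC library 2 (-0.49), or improved-handling SLAM library 1 (-0.48).

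SNRNP70 fell. The drop-out libraries with s4U held 747 to 1020 CPM with a median of 855, and the improved-handling ones 220 to 254 CPM with a median of 237. Each improved-handling library lay below each drop-out one, and the improved-handling values differed little among chemistries. The mean went from 873 ± 115 to 237 ± 11.4 CPM (SD, n = 6 each), a log2 fold change of -1.88 ± 0.11 (edgeR, adjusted p = 2.51e-12). The log2 fold change fell by 1.99 in TL, 1.86 in SLAM and 1.79 in TUC. This fall is between handlings of RNA from the same cell line. CPM are relative to the other reads of a library, so they do not give an amount of SNRNP70 RNA per cell.

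**Figure D1:**
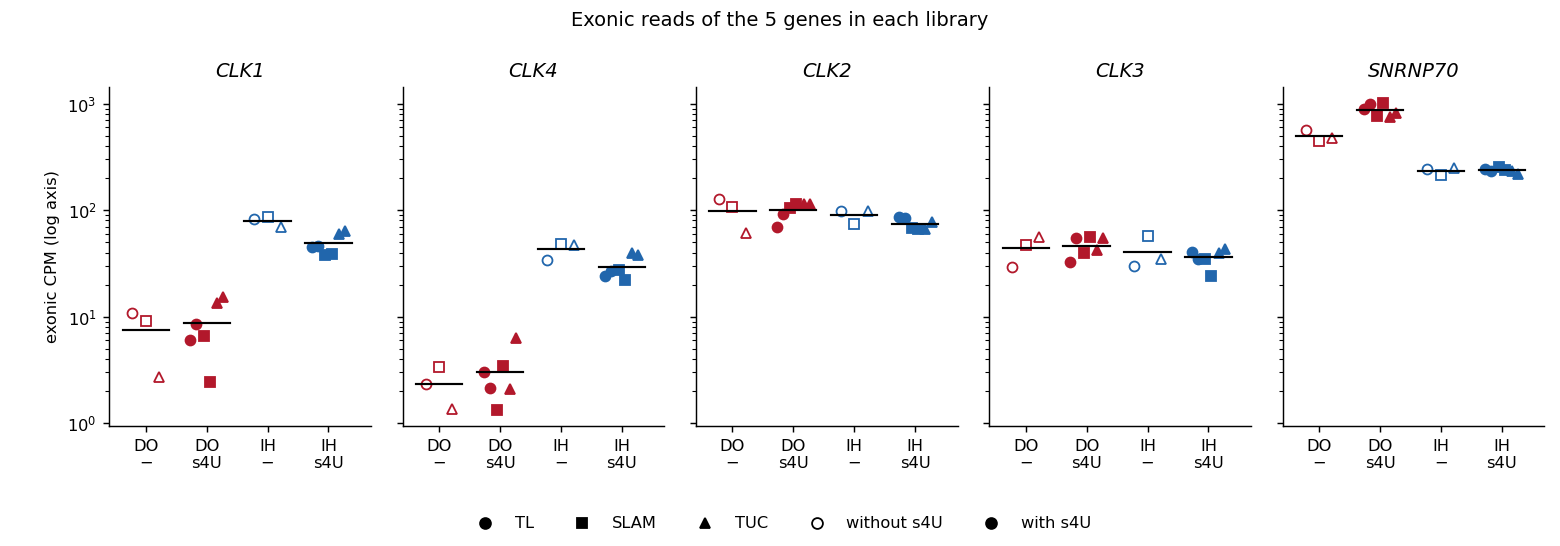
Exonic CPM (log axis) of the 5 genes in each of the 18 libraries, by handling and label; points are libraries, shapes are chemistries, open points are libraries without s4U and bars are group means. CLK1 and CLK4 sit higher after improved handling in every library, and SNRNP70 is highest in drop-out libraries with s4U, at 747 to 1020 CPM.

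These calls stand against a background in which most genes changed. With s4U, 80.6% of 12449 genes tested were called between handlings, 46.7% higher and 33.9% lower. Among the 5 genes, CLK1 and CLK4 were called higher, and CLK2 and SNRNP70 lower. Being called therefore says little about these genes. The share of all genes whose libraries did not overlap between handlings was not counted. Lack of overlap, wherever it is given for these genes, is description only. Ranked from the largest fall to the largest rise, the change of CLK1 lay above those of 88.6% of genes, and 8.22% of genes fell below SNRNP70. CLK2 and CLK3 lay above 36.2% and 36.8%. The median gene moved by 0.44 (log2). Without a scaling factor the median gene moved by 0.995 and the split of calls shifted from 5813 higher and 4220 lower to 6991 higher and 3031 lower, while CLK1 (3.26), CLK4 (3.75) and SNRNP70 (-1.32) kept their direction.

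The same comparison in RNA without s4U had 3 libraries per handling, 1 for each chemistry. These single libraries add nothing to the fitted spread, so the standard errors and p-values of every comparison that uses them rest on the duplicates with s4U. CLK1 had 2.71 (TUC), 9.02 (SLAM) and 10.8 (TL) CPM after drop-out handling and 69.6, 85.7 and 82.4 CPM after improved handling. CLK4 had 1.36, 3.38 and 2.32 CPM against 47.3, 48.1 and 34.0 CPM in the same order of chemistries. These drop-out values rest on 2 to 14 exonic reads per library for CLK1 and 1 to 3 for CLK4. As with s4U, CLK4 was tested only because of the handling in which it is high, so its call supports nothing beyond these values. Neither pair of groups overlapped, and the log2 fold changes were 3.60 ± 0.33 for CLK1 (edgeR, adjusted p = 6.73e-09) and 4.23 ± 0.46 for CLK4 (adjusted p = 6.19e-08). Called genes made up 72.1% of those tested here, 41.4% higher and 30.7% lower. SNRNP70 fell by 1.08 on the log2 scale (SE 0.16, adjusted p = 2.71e-06). CLK2 changed by -0.07 (adjusted p = 0.744) and CLK3 by -0.12 (adjusted p = 0.679), and neither passed. Without a scaling factor those last values were 0.37 and 0.32.

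**Figure D2:**
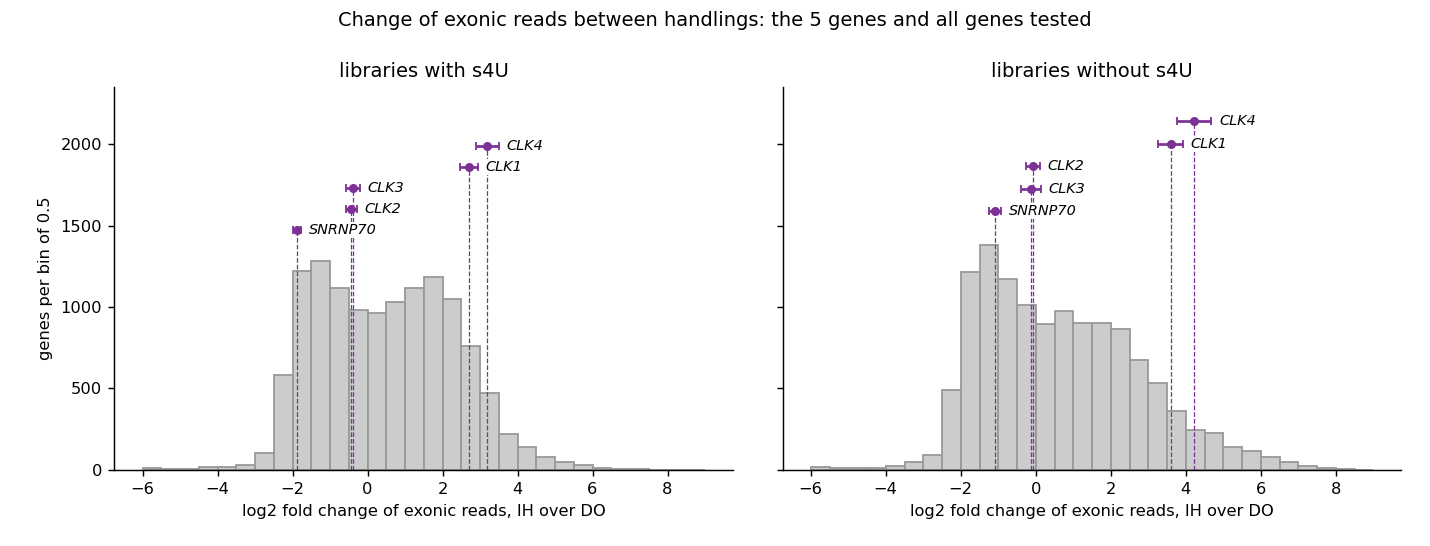
Log2 fold change of exonic reads, improved over drop-out handling, for all 12449 genes tested (grey bars, genes per bin of 0.5; values beyond the axis are in the end bins) and for the 5 genes (points with SE bars, heights arbitrary), in libraries with and without s4U. CLK1 lies in the right-hand part of both distributions and SNRNP70 in the left-hand part, while CLK2 and CLK3 lie near 0. CLK4 passed the filter on low counts only through improved handling, so its place among the genes tested supports nothing.

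Libraries with and without s4U were then compared within each handling. With 1 library without s4U per chemistry and handling, the label cannot be told apart from other differences of those libraries. SNRNP70 was higher with s4U after drop-out handling. Without s4U its level was 564 CPM in TL, 451 CPM in SLAM and 477 CPM in TUC, below the lowest of the 6 libraries with s4U (747 CPM). The log2 fold change was 0.82 ± 0.14 (edgeR, adjusted p = 0.00548), in a comparison where 0.217% of 12449 genes were called, 0.12% higher. Among the 5 genes, SNRNP70 was the only one called. Without the TL or the TUC libraries its value was 0.85 or 0.84 and no longer passed (adjusted p = 0.0919 and 0.132). Unconverted reads alone showed the same order, with 439 to 553 CPM without s4U and 678 to 957 CPM with it.

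After improved handling SNRNP70 had 212 to 246 CPM without s4U and 220 to 254 CPM with it, and the 2 ranges overlapped. The log2 difference was 0.02 ± 0.13 (edgeR, adjusted p = 0.994). The difference between its changes with handling, with against without s4U, was -0.80 ± 0.19, with an unadjusted p of 0.000347 and an adjusted p of 0.362, so it did not pass. In that test 0 of 12449 genes passed and 914 had an unadjusted p under 0.05.

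CLK1 and CLK4 did not pass in either handling. After drop-out handling the log2 differences were 0.17 ± 0.45 for CLK1 and 0.47 ± 0.68 for CLK4. After improved handling, CLK1 had 37.6 to 64.4 CPM with s4U and 69.6 to 85.7 CPM without, with no overlap, yet the log2 difference of -0.72 ± 0.19 did not pass (edgeR, adjusted p = 0.180). CLK4 had 22.0 to 39.2 CPM with s4U and 34.0 to 48.1 CPM without, with overlap, and a difference of -0.56 ± 0.23 (adjusted p = 0.582). Among 12449 genes 0.225% were called in this comparison, and 0 of the 5 were among them. The CLK1 value lay above 2.05% of all genes' values and the CLK4 value above 4.67%.

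The intronic share, the percent of a gene's reads that were marked intronic, had a median of 15.5% over 7332 genes after drop-out handling and of 45.8% over 11858 genes after improved handling. Each set holds the genes with at least 10 reads in every library with s4U of that handling, so the 2 medians are not over the same genes. SNRNP70 had the lowest share of the 5 genes in both. Its share was 4.13% to 7.69% in the drop-out libraries with s4U, with a median of 5.51%, and 17.2% to 23.8% in the improved-handling ones, with a median of 18.1%. The groups were well apart. The odds of an intronic read rose by 2.01 ± 0.23 on the log2 scale (edgeR, adjusted p = 4.02e-09).

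The share of CLK2 rose too. It was 3.66% to 15.5% after drop-out handling and 18.4% to 38.6% after improved handling, without overlap. The log2 odds ratio was 2.13 ± 0.31 (edgeR, adjusted p = 4.76e-07). Over 6770 genes the background was 74.9% called, 74.4% higher, with a median log2 odds ratio of 1.53. Among the 3 genes of the set with enough reads, CLK2 and SNRNP70 were called higher and CLK3 was not.

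CLK3 held nearly the same share in both handlings. Its values ran from 23.1% to 36.9% after drop-out handling and from 31.5% to 44.9% after improved handling. The ranges overlapped, and the log2 odds ratio of 0.28 ± 0.32 did not pass (edgeR, adjusted p = 0.439). It lay above the value of 10.9% of genes, while SNRNP70 and CLK2 lay above 68.3% and 72.8%. In RNA without s4U the CLK3 odds ratio was -0.43 ± 0.45 (adjusted p = 0.407), above that of 3.63% of genes.

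SNRNP70 rose in RNA without s4U as well, from 6.98% to 8.99% intronic to 17.0% to 22.2%, with a log2 odds ratio of 1.49 ± 0.32 (edgeR, adjusted p = 0.000209). There 63.0% of genes were called, 62.7% higher. CLK2 changed by 1.29 ± 0.43 (adjusted p = 0.0101), which without the SLAM libraries became 0.52 (adjusted p = 0.371). Between libraries with and without s4U no intronic share passed in edgeR's test in either handling with HISAT-3N (0 of 6770 genes, which is 0.0%; unadjusted p under 0.05 in 687 after drop-out and 212 after improved handling). With HISAT2, 128 genes passed after drop-out and 3158 after improved handling, and SNRNP70 was called in both, at -1.24 and -1.09. With HISAT-3N the log2 odds ratios of SNRNP70, CLK2 and CLK3 were -0.55, -0.59 and -0.19 after drop-out handling and -0.03, 0.25 and 0.51 after improved handling.

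CLK1 and CLK4 had too few drop-out reads for this test. CLK1 had 28 intronic reads of 77 over the 6 drop-out libraries with s4U, a share of 36.4% (interval 26.5% to 47.5%), and 225 of 783 after improved handling, 28.7% (25.7% to 32.0%). CLK4 had 22 of 42, 52.4% (37.7% to 66.6%), and 311 of 646, 48.1% (44.3% to 52.0%). Both pairs of intervals overlap, so a change in share was not detectable at this depth. Relaxing the minimum to a mean of 10 reads gave log2 odds ratios of -0.66 ± 0.54 for CLK1 and -0.06 ± 0.82 for CLK4, neither called (edgeR, adjusted p = 0.317 and 1.0). CLK4 met this minimum only through its improved-handling reads, so its value decides nothing.

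**Figure D3:**
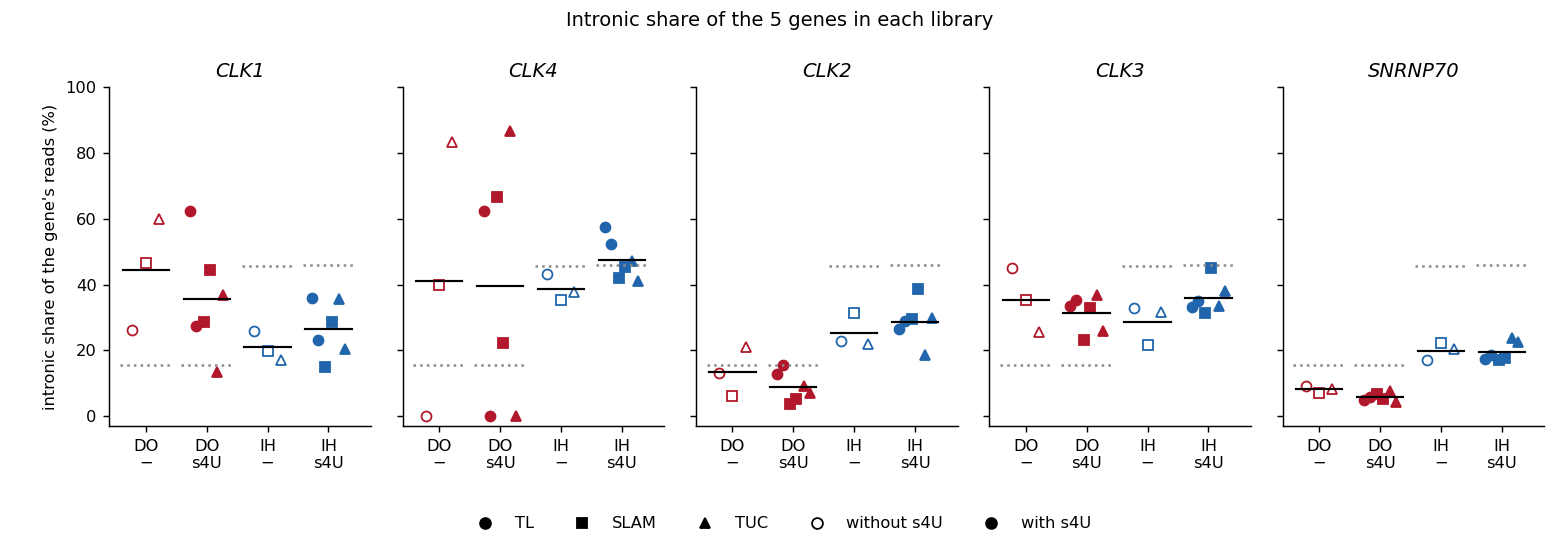
Intronic share of each gene's reads (percent) in each library, by handling and label; points are libraries, open points lack s4U, solid bars are group means and dotted lines are medians of all genes with at least 10 reads in every library of the group. CLK2 and SNRNP70 rise from drop-out to improved handling, CLK3 stays near its drop-out level, and after improved handling only the CLK4 mean with s4U reaches the median of 45.8%.

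The name of the set was checked against these shares. After improved handling with s4U the mean intronic shares were 47.6% ± 6.32 for CLK4, 36.0% ± 4.89 for CLK3, 28.6% ± 6.49 for CLK2, 26.5% ± 8.50 for CLK1 and 19.5% ± 2.89 for SNRNP70 (SD, n = 6 each). With HISAT2 the CLK2 and SNRNP70 means were 18.6% and 10.5%. Among 11858 genes the HISAT-3N means lay above 52.0%, 38.6%, 30.4%, 27.9% and 19.9% of genes. After improved handling, then, these shares were spread around and below the middle of all genes. After drop-out handling CLK3, at 31.3%, lay above 80.8% of genes, while CLK2, at 8.91%, lay above 28.3% and SNRNP70, at 5.71%, above 17.3%. Pooled over the drop-out libraries with s4U, where the median of 10375 genes was 18.9%, the CLK1 share of 36.4% lay above 76.7% of genes, and the CLK4 share was 52.4% on 42 reads, too few to be ranked. A share over all introns cannot show a single detained intron, so the genes are called by their names.

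Raw intronic levels depend on what they are scaled to. Scaled to other intronic reads, CLK3 fell from 72.7 ± 35.5 to 16.9 ± 3.03 intronic CPM and SNRNP70 from 172 ± 53.8 to 47.8 ± 2.85 (SD, n = 6 each), log2 fold changes of -2.10 ± 0.27 and -1.83 ± 0.19 (edgeR, adjusted p = 3.51e-08 and 3.30e-10). Scaled to exonic library sizes, which moved the median gene from 0.30 to 2.19 and the calls from 4775 higher and 3904 lower to 9352 higher and 725 lower, they were -0.14 and 0.12, and neither passed. CLK1 and CLK2 were 0.13 and -0.22 on the first scale, not called, and 2.07 and 1.71 on the second, both called. On the first scale 66.0% of 13154 genes were called, 36.3% higher and 29.7% lower.

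CLK4 intronic reads rose by 1.19 ± 0.44 on the first scale (edgeR, adjusted p = 0.0183), from 0 to 13 reads per drop-out library, with 0 in TL library 2 and TUC library 2. The call was lost without drop-out TL library 2 (0.94, adjusted p = 0.0588) or SLAM library 2 (0.98, adjusted p = 0.0790), without the TL or SLAM chemistry, and with HISAT2. The value was 3.83 without drop-out TUC library 1, which alone held 13 of the 22 drop-out reads. CLK4 intronic reads reached the filter on low counts (12.4 CPM) in 2 of 9 drop-out and 9 of 9 improved-handling libraries. The drop-out libraries without s4U held 0 (TL), 2 (SLAM) and 5 (TUC) CLK4 intronic reads. In RNA without s4U, where 57.5% of genes were called, CLK4 changed by 3.29 ± 1.14 (adjusted p = 0.0142), and by 0.86 without the TL libraries (adjusted p = 0.377).

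The converted share is the percent of a gene's exonic or intronic reads that were converted. Labelling lasted 2 h in both handlings, yet this share differed between them. The exonic mean with s4U was 8.16% after drop-out and 20.8% after improved handling in SNRNP70, and 19.8% and 51.7% in CLK2. The share is therefore not given as the fraction of a gene's RNA made within the labelling time. After improved handling, CLK1 and CLK4 exonic reads were mostly converted. CLK1 ran from 83.9% to 96.2% over the 6 improved-handling libraries with s4U, with a median of 89.8%, and CLK4 from 80.0% to 100%, with a median of 89.5%. Without s4U, 27 of 727 CLK1 exonic reads (3.71%) and 4 of 362 CLK4 reads (1.10%) were converted after improved handling. Among 9357 genes the CLK4 mean of 89.7% and the CLK1 mean of 89.1% lay above 99.9% and 99.8% of genes, against a median of 30.6%.

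CLK3 followed at 70.3% ± 11.9 (52.6% to 86.2%), CLK2 at 51.7% ± 10.2 (40.3% to 66.4%) and SNRNP70 at 20.8% ± 6.45 (11.7% to 31.2%; SD, n = 6 each). CLK4 and CLK1 differed by less than their spread. The ranges of CLK1 and CLK3, and of CLK3 and CLK2, overlapped, but within each of the 6 libraries the order CLK1, CLK3, CLK2, SNRNP70 held. CLK3 and CLK2 lay above 97.1% and 85.7% of genes and SNRNP70 above 24.1%. In CLK2 the TUC libraries were the highest, at 66.4% and 61.4%, against 40.3% to 50.7% in the other chemistries; a difference between chemistries was not tested.

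Converted and unconverted exonic reads were also set on the CPM scale. CLK1 had 32.7 to 57.0 CPM of converted and 2.28 to 9.64 CPM of unconverted exonic reads after improved handling with s4U. SNRNP70 had 27.0 to 73.0 CPM converted and 161 to 204 CPM unconverted. After drop-out handling SNRNP70 held 55.4 to 81.8 CPM converted, overlapping the improved-handling range, and 678 to 957 CPM unconverted, far above it.

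Between handlings the converted share of exonic reads rose for the 3 genes with enough reads. SNRNP70 went from 5.58% to 10.6% (median 8.66%) to 11.7% to 31.2% (median 20.6%), with no overlap and a log2 odds ratio of 1.56 ± 0.22 (edgeR, adjusted p = 2.04e-08). CLK2 went from 14.5% to 30.3% (median 17.99%) to 40.3% to 66.4% (median 48.2%), also apart, with a log2 odds ratio of 2.12 ± 0.32 (adjusted p = 7.67e-08). CLK3 went from 27.9% to 75.6% (median 49.1%) to 52.6% to 86.2% (median 71.4%), with wide overlap and a log2 odds ratio of 1.39 ± 0.42 (adjusted p = 0.00391). All 3 were called, where 61.2% of 5813 genes were called and 61.2% were called higher, with a median of 1.04. CLK2 lay above 93.6% of genes, SNRNP70 above 77.8% and CLK3 above 69.2%. Without s4U, 29 of 1481 SNRNP70 exonic reads (1.96%) were converted after drop-out and 77 of 2184 (3.53%) after improved handling. In CLK2 these shares were 0.654% and 1.86%, and in CLK3 0% and 1.83%. This background was not subtracted, and its part in the rises with s4U was not tested. The CLK3 call was lost without drop-out TUC library 2 (0.88, adjusted p = 0.0824) and without the TUC chemistry (1.11, adjusted p = 0.0660).

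CLK1 exonic reads were mostly converted in the drop-out libraries too. Over those with s4U, 43 of its 49 exonic reads were converted, 87.8% (interval 75.8% to 94.3%), against 499 of 558, 89.4% (86.6% to 91.7%), after improved handling. Its share was 100% in 4 of the 6 drop-out libraries, on 5 to 13 reads each, 83.3% of 6 reads in TL library 1 and 58.3% of 12 reads in TUC library 2. For CLK4, 13 of 20 drop-out reads were converted, 65.0% (43.3% to 81.9%), against 301 of 335, 89.9% (86.2% to 92.6%). Those CLK4 intervals lie apart, but they cover counting error only. With the minimum relaxed to a mean of 10 reads, both genes entered the test only through their improved-handling reads. The values were -0.45 ± 0.50 for CLK1 and 1.33 ± 11.6 for CLK4 on the log2 odds scale, neither called (edgeR, adjusted p = 0.480 and 0.953). With 49 and 20 drop-out reads, that test could not decide whether the shares changed.

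Intronic reads were mostly converted in all 5 genes after improved handling. Pooled over the 6 libraries with s4U, the share was 93.9% of 311 reads in CLK4 (interval 90.7% to 96.1%), 90.7% of 225 in CLK1 (86.2% to 93.8%), 86.9% of 229 in CLK3 (81.9% to 90.7%), 82.3% of 645 in SNRNP70 (79.2% to 85.1%) and 81.0% of 331 in CLK2 (76.4% to 84.8%). The median of 11727 genes was 81.8%. The intronic reads without a mismatch numbered 19, 21, 30, 114 and 63 in that order of genes. SNRNP70 was the only gene of the set with enough intronic reads in each library for the test. It rose from 36.2% to 65.9% after drop-out handling to 63.4% to 93.2%, with a log2 odds ratio of 2.09 ± 0.42 (edgeR, adjusted p = 4.15e-06), where 88.1% of 1794 genes were called, 87.8% higher, with a median of 2.01.

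The gap between intronic and exonic conversion differed sharply among the genes. After improved handling it was 59.0 percentage points in SNRNP70, 30.2 in CLK2, 17.1 in CLK3 and 3.93 in CLK4, as means over 6 libraries, against 48.2 points for the median of 6926 genes. CLK4 lay above 1.16% of genes and CLK3 above 5.05%, while SNRNP70 lay above 79.6%. CLK1 had 7 intronic reads in SLAM library 1 and so fell below the minimum of 10; its pooled shares were 90.7% intronic and 89.4% exonic.

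**Figure D4:**
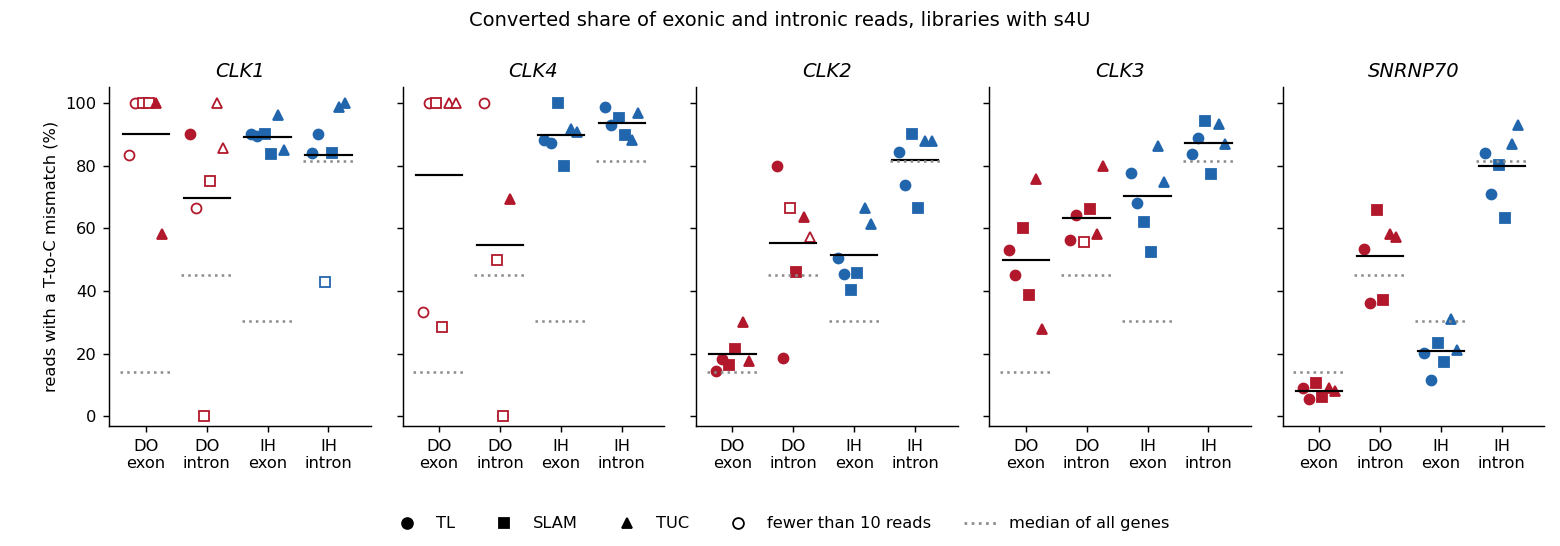
Percent of exonic and intronic reads with a T-to-C mismatch in the 12 libraries with s4U; points are libraries, open where fewer than 10 reads were counted, solid bars are means and dotted lines are medians of all genes. After improved handling exonic and intronic reads are at like levels in CLK1 and CLK4, whereas in SNRNP70 the exonic mean is 20.8% and the intronic mean 79.8%.

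For exonic reads, the number of mismatches per T position gave the same order without calling a read converted. Pooled over the improved-handling libraries with s4U, and so without a spread, 8.84% of T positions in CLK4 exonic reads, 7.84% in CLK1, 6.61% in CLK3, 4.12% in CLK2 and 1.81% in SNRNP70 were mismatched. In intronic reads the range was narrower and the order was another, with 8.95% in CLK4, 8.79% in SNRNP70, 8.77% in CLK1, 8.29% in CLK3 and 7.41% in CLK2. Without s4U the exonic values were 0.0255% to 0.141%. Converted exonic reads carried 4.26 mismatches each in CLK4, 3.90 in CLK1, 2.82 in both CLK2 and CLK3 and 2.08 in SNRNP70.

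The T positions per read also differed among the genes. As for the exonic mismatch percentages, CLK1 and CLK4 were highest and SNRNP70 lowest. The order within CLK1 and CLK4, and within CLK2 and CLK3, was the reverse. Exonic reads held 44.5 in CLK1, 43.3 in CLK4, 36.5 in CLK2, 31.5 in CLK3 and 24.6 in SNRNP70, whose intronic reads held 35.1. A read with fewer T positions has fewer chances to be called converted, and the part of this in the converted shares was not tested; the mismatch percentages above are per T position. Pooled over the drop-out libraries with s4U, and so without a spread, the intronic percentages were lower. They were 7.54% in CLK4 (22 reads), 5.60% in CLK1 (28), 4.22% in CLK3 (148), 3.69% in SNRNP70 (345) and 3.12% in CLK2 (60).

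Degradation rate constants were available for SNRNP70 alone among the 5 genes. In the authors' deposited table, whose time unit is not stated, its constant was 0.0333 after drop-out and 0.0804 after improved handling in TL, a log2 fold change of 1.28 with the authors' adjusted p of 0.00153. For TUC the authors' deposited table gave 0.0279 and 0.122 (log2 2.15, adjusted p 2.62e-06), and for SLAM 0.0249 and 0.102 (log2 2.05, adjusted p 4.20e-06). A higher constant means a shorter estimated lifetime. At an adjusted p under 0.05, the authors' deposited table had 52.6% of 2209 transcripts higher in TL, 48.1% of 2262 in TUC and 48.9% of 1600 in SLAM, with median log2 values of 1.18, 1.19 and 1.14. The SNRNP70 change lay above that of 56.0%, 86.6% and 84.8% of them.

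Partner genes could be matched by symbol only in that table. Of 8 other kinases of SR proteins and the spliceosome, the authors' deposited table held CDK12, a kinase of RNA polymerase II, which was higher in all 3 chemistries (log2 0.72 in TL, 0.89 in TUC and 0.91 in SLAM), above 30.01%, 35.7% and 39.8% of transcripts. Of 13 U1 proteins and partners it held 7 in TL and in TUC and 8 in SLAM, of which 4, 3 and 4 were higher and 0 lower in the authors' deposited table. These counts are near the share of all transcripts called higher (52.6%, 48.1% and 48.9%). Their median log2 values were 1.56, 1.36 and 1.22. Of the U1-specific proteins, SNRPA was higher in all 3 (0.84, 1.52 and 1.27), and SNRPC, at 1.56, 1.36 and 1.68, passed only in SLAM (adjusted p = 0.0506, 0.0518 and 0.0285). Of the Sm ring shared by spliceosomal particles, SNRPF was at 2.60 in TL, 1.96 in TUC and 0.81 in SLAM, where it did not pass (adjusted p = 0.343), and SNRPD2 at 0.63, 0.57 and 0.88 passed in none in the authors' deposited table.

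Of 13 other genes known for retained or detained introns, the authors' deposited table held MAT2A, PABPN1, RBM5 and SON. All 4 were higher in TL and TUC and 3 in SLAM, where PABPN1 did not pass (adjusted p = 0.0554), against 52.6%, 48.1% and 48.9% of all transcripts in TL, TUC and SLAM. The list's median log2 values in the authors' deposited table were 1.97, 1.58 and 1.399 in TL, TUC and SLAM. RBM5, an RNA-binding protein that regulates alternative splicing, had log2 values of 2.62, 1.91 and 1.82 in the same order, and MAT2A, which makes S-adenosylmethionine, had 1.43, 1.24 and 1.62 in the authors' deposited table. SON, a protein of nuclear speckles, had 1.09, 1.21 and 0.88, above 45.9%, 50.9% and 38.7% of transcripts in the authors' deposited table.

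Genes with a like pattern were sought over 42 values: the intronic share in 18 libraries and the converted shares of exonic and intronic reads in the 12 with s4U. SNRNP70 alone of the set had the 20 exonic and 20 intronic reads required in every library. The 2 nearest of 492 genes were ENSG00000127616 and ENSG00000130816, with root mean square differences of 5.36 and 5.78 percentage points against a median of 17.7. The files do not pair these identifiers with names.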

How the data were processed

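The authors deposited a table of read counts per library, alignment and gene, split by an intronic flag and by how many T positions and T-to-C mismatches a read holds; these counts are whole reads, not normalized. Trizol RNA was made into stranded total-RNA libraries, per the labels' protocols. The submitters' processing notes list cutadapt, HISAT2, STAR, HISAT, Picard, HTSeq, DESeq2 and GRCh38, without versions or roles; the settings codes, the annotation and the use of strand are not given in the sources used here. A second table deposited by the authors holds bakR rate constants (other values, no time unit), their log2 fold change and adjusted p-values. Its log2 direction was found from the constants to be improved over drop-out handling.

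Main values use HISAT-3N, settings D. Exonic and intronic counts were scaled by TMM, filtered by filterByExpr and fitted with edgeR 4.0.16 (quasi-likelihood, R 4.3.3) over 12 groups and all genes, with contrasts averaged over the 3 chemistries. Shares were tested on the paired counts, each library having its own term, where every library held 10 or more of the reads the share is taken over (for the intronic share, all reads of the gene). A call is a Benjamini-Hochberg adjusted p under 0.05; standard errors are on the log2 scale. Fits of improved against drop-out handling with s4U were run on simulated counts, with 200 genes changed by 2 (log2). Of these, 100% were recovered for exonic counts, 99.5% for intronic counts, 79% for the intronic share and 84.5% for exonic conversion. Intronic conversion and the other comparisons were not simulated, and neither was a change in most genes. Between replicates of a group, the chi-square per degree of freedom was 2.17 to 8.88, above the value of about 1 that sampling noise gives, so none was a repeated library. The genes named are the 5 genes, the nearest genes by the rule above and 3 lists of partner genes. The genes and the lists were chosen with earlier results of these data known, so none is independent evidence. Alternatives covered alignments, filters, scaling, DESeq2 1.42.0, leaving out each of the 12 libraries with s4U, and leaving out each chemistry. The 10 samples of other chemistries were not analysed here. 1 gene of the retained-intron list is not reported here and was left out of its counts and medians. No gene sequence is printed, since the counts name no intron, promoter or site.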

Additional observations from a re-analysis of the deposited data

Results flagged for a closer look

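Of 50 sets of 6 or fewer libraries with s4U, each for 1 gene, quantity and handling, 3 held a library far from the rest; chance gives about 1 in 20. The converted share of CLK1 intronic reads was 0% in drop-out SLAM library 1, which held 2 such reads, against 66.7% in the next lowest library. After improved handling the same share was 42.9% in SLAM library 1, on 7 reads, against 84.0% in the next lowest. CLK2 intronic reads stood at 64.0 CPM in drop-out TL library 2, on 16 reads, against 29.8 in the next highest.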

How the results depend on the processing

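Of 1172 alternative values of the 5 genes' tests, 1136 stayed on their side of the threshold, 67 of them with a change of sign where neither value passed. Without a change of sign, 14 lost and 17 gained a call. In 5 the sign changed and the main or the alternative value was called. The alternatives named as scaled by exonic library sizes, without a scaling factor, with a mean of 10 reads and on the 12 libraries with s4U alone were chosen after seeing the data. Without a scaling factor the CLK2 exonic change with s4U became 0.13. Scaled by exonic library sizes, the intronic changes became 0.12 for SNRNP70 and 1.71 for CLK2 with s4U, and 0.41 and 1.22 without. With HISAT2 the mean intronic shares after improved handling with s4U were 18.6% for CLK2, 26.9% for CLK3, 40.8% for CLK4 and 10.5% for SNRNP70, each lower by more than 1 SD, and SNRNP70's log2 odds ratio of s4U against none was -1.24 after drop-out and -1.09 after improved handling, both called. The causes were not tested.

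Counts of genes called between handlings stayed within 1.5 times, except with at least 50 reads in every library, where fewer genes are tested (intronic share 2123 with s4U and 1905 without, converted share 1637 exonic and 77 intronic), and for intronic conversion with HISAT2 (602) and with a mean of 10 reads (4905). Counts between s4U and none are small and moved often. For exonic reads after drop-out handling (27) they were 90 with HISAT2, 97 unfiltered, 53 with DESeq2, 47 without a scaling factor, 13 without TL, 13 without SLAM and 9 without TUC. After improved handling (28) they were 8 with STAR, 102 with HISAT2, 50 unfiltered, 12 without TL and 9 without TUC. For intronic reads after drop-out handling (10) they were 18 with STAR, 68 with HISAT2, 3 with DESeq2's size factors, 31 unfiltered, 117 with DESeq2, 1 by exonic sizes, 1 without TL and 2 without TUC. After improved handling (47) they were 17 with STAR, 539 with HISAT2, 88 with DESeq2, 21 by exonic sizes, 2 without TL and 9 without TUC. For the intronic share (0 in both) they were 3 with STAR, 128 with HISAT2, 9 with a mean of 10 reads and 1 without SLAM after drop-out handling, and 3158 with HISAT2 and 1 with a mean of 10 reads after improved handling. Leaving out 1 library with s4U gave 17 to 208 and 15 to 57 for exonic counts, 2 to 84 and 12 to 153 for intronic counts and 0 to 19 for the drop-out intronic share.

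The replicate number as a block was run for the handlings with s4U alone, on those 12 libraries, and not for comparisons that use libraries without s4U. The CLK3 exonic change was then -0.57 and passed (adjusted p = 0.0083), as it did on the same libraries without the block (-0.59), and no other call among the 5 genes changed in that comparison; 9583 genes were called in exonic counts and 7828 in intronic counts, against 9569 and 7872 without the block. Same-numbered drop-out libraries deviated together in all 3 pairs of chemistries (correlations 0.293 to 0.335), so they are not fully independent. Pairs within improved handling, and pairs across the handlings compared, correlated at -0.013 to 0.038, so the numbers were not taken to pair the handlings. The depth limits CLK1 and CLK4 most, with at most 13 exonic reads in a drop-out library with s4U.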
